A study of Homo sapiens with 44 samples.

Results

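The MYCN amplicon was followed through 5 transcripts, MYCN, MYCNOS, DDX1, NBAS and FAM49A, which lie along 1 stretch of the short arm of chromosome 2 and were chosen by name. They are 5 of the 23367 gene rows of the count table, and all 5 had counts in each of the 44 libraries. The cells were IMR5/75, an established human neuroblastoma line with amplified MYCN, which here carried a short hairpin RNA (shRNA) against MYCN under tetracycline control. Tet plus cells received tetracycline, which switches the hairpin on, and Tet minus cells did not. Both arms were held at the border of G1 and S phase by 18 h of thymidine and then washed to release them, and RNA was taken at 0, 3, 6, 8, 10, 12, 14, 16, 18, 20 and 22 h. Every arm had 2 libraries at every time, 44 in all, and the design text calls them biological replicates. The question was how lowering MYCN alters transcripts along the cell cycle. Cells given tetracycline with a control hairpin, or with none, were not among the groups, so what the drug or off-target binding of the hairpin does cannot be told apart from what the loss of MYCN does.

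MYCN is a transcription factor that pairs with MAX, binds E-box sequences and raises the growth and division of neural crest cells. Amplification of its region, as DNA outside the chromosomes or as repeats within a chromosome, is a defining lesion of aggressive neuroblastoma. Amplified segments vary in length between tumours, so DDX1 and NBAS are gained together with MYCN in some of them. MYCNOS is transcribed from the opposite strand at the start of MYCN. DDX1 is an RNA helicase of the tRNA ligase complex, NBAS serves in transport from the Golgi to the endoplasmic reticulum and in nonsense-mediated mRNA decay, and FAM49A, now named CYRIA, binds the GTPase RAC1 and restrains the WAVE complex that builds actin networks.

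The starts of the 3 most abundant members differ in the letters just upstream, shown here as background. Whether these letters bear on the arm differences was not tested. Each line gives the 250 bases before the start of transcription from RefSeq, build GRCh38.p14, 5′ to 3′ on the gene's own strand. MYCN covers chr2:15940300-15940549 on the plus strand, DDX1 chr2:15591618-15591867 on the plus strand and NBAS chr2:15561335-15561584 on the minus strand. Capitals mark matches on either strand to an E2F site (TTTGGCGC, TTTCCCGC, TTTCGCGC or TTTGCCGC), an E-box (CACGTG) or a GC box (GGGCGG).
MYCN: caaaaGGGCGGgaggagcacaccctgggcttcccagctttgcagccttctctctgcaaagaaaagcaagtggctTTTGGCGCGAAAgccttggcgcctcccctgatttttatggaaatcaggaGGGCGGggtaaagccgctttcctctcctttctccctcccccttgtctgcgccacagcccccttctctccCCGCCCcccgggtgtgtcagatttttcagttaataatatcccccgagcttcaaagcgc
DDX1: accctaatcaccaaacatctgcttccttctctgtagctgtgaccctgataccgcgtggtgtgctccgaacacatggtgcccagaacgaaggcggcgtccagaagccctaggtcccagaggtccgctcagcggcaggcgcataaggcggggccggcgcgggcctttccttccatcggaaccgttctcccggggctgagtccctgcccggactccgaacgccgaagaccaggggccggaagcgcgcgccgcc
NBAS: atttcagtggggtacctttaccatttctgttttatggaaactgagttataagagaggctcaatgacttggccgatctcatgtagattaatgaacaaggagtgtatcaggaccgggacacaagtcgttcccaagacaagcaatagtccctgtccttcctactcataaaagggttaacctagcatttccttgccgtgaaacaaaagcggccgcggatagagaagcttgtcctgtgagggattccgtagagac
The MYCN window held a pair of overlapping E2F matches on opposite strands, from -176 to -169 and from -172 to -165 counted from the start, and 3 GC boxes beginning at -245, -127 and -58. None of these letters occurred in the DDX1 or NBAS window. Of 35116 promoters of the same length, 2.79% held an E2F match, 6.34% an E-box and 42.6% a GC box. These are matches of letters, not measured binding sites.

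Depth ranged from 10.9 to 25.3 M (mega) gene counts, with a median of 20.1 M. The 8 Tet plus libraries of 16 to 22 h had 10.9 to 19.8 M and their 8 Tet minus counterparts 14.0 to 23.8 M. From 16 h on the Tet plus libraries carried another form of title and other lanes than the Tet minus libraries, so arm and lane set cannot be told apart there, whereas at 0 to 14 h same-numbered libraries of both arms shared lanes. The windows 0 to 14 h and 16 to 22 h were therefore tested apart. From 16 to 22 h ERCC spike-in transcripts took 0.0543% to 0.376% of counts in Tet plus libraries, against 1.13% to 3.43% in Tet minus ones, and small nucleolar RNAs 0.935% to 2.41% against 0.289% to 0.713%. Their part in the results of these times was not tested. Of 6 noradrenergic neuroblast markers, 5 had counts in every library, among them the transcription factor HAND2 (245 to 620 CPM, read counts scaled to library size), while tyrosine hydroxylase (TH) reached at most 4 counts; their sum was 544 to 968 CPM in Tet plus libraries, against 382 to 783 CPM in Tet minus ones. Summed epithelial markers were at most 2.57 CPM and leukocyte markers at most 3.90 CPM in any library, with KRT19 and CD3E at 0 throughout, and mesenchymal markers, led by COL3A1, were 72.9 to 270 CPM in Tet plus libraries, against 64.1 to 226 CPM in Tet minus ones. In such bulk RNA, fewer cells of a kind and less RNA per cell cannot be told apart.

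DDX1, NBAS and MYCN were the 3 highest genes per length among the 54 genes of the 2p list with an exon length, while MYCNOS ranked 17 and FAM49A 40. Levels of different genes are compared as CPM per kilobase of exon. DDX1 stood at 2756 ± 345 CPM per kb, NBAS at 906 ± 199 and MYCN at 437 ± 61.6 (SD, n = 44 libraries of both arms). MYCNOS stood at 16.0 ± 3.27 and FAM49A at 0.894 ± 0.337 CPM per kb. The lowest library for DDX1 (2107) lay above the highest for NBAS (1345), the lowest for NBAS (595) above the highest for MYCN (568), and so on down to FAM49A (0.403 to 1.55), so no neighbouring pair in this order overlapped in any library. Among 20195 genes with a length, DDX1 ranked 6 and NBAS 36, against 10467 for FAM49A.

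Per length, DDX1, NBAS and MYCN stood above all listed genes around them, while MYCNOS and FAM49A lay within the range of those genes. The 49 neighbours with a length had a median of 5.76 CPM per kb, and the highest of them, FAM84A, which lies next to NBAS on the telomere side, had 165.6. ODC1, which makes polyamines and is a textbook MYC target, came next with 146. MYCN was 2.64 times, NBAS 5.47 times and DDX1 16.6 times the level of FAM84A per kb. The place of MYCN above FAM84A rests on the exon lengths (2602 and 8384 bases). Without them FAM84A, with a mean of 1388 CPM, lay above MYCN with 1137 CPM. FAM49A, the outermost member on the centromere side, was at 0.155 times the neighbours' median. Copy number was not measured in these files. Together the 5 members took 1.68% to 2.45% of all gene counts, and DDX1 with NBAS alone 1.54% to 2.35%.

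**Figure D1:**
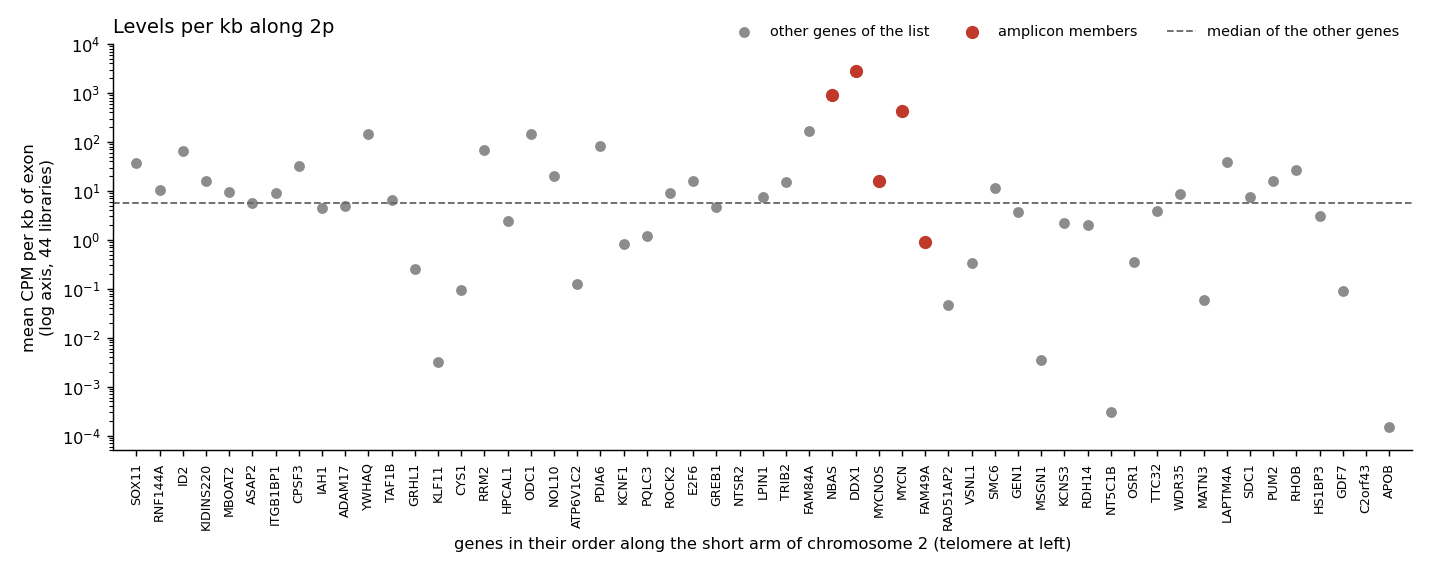
Mean CPM per kb of exon over 44 libraries (vertical axis, logarithmic) for the 5 amplicon members (red) and their 49 listed neighbours with an exon length (grey), in chromosomal order with the telomere at left; the dashed line is the neighbours' median of 5.76, and NTSR2, at 0, has no point. DDX1, NBAS and MYCN lie above every neighbour drawn, MYCNOS at 16.0 lies within their range and FAM49A at 0.894 below their median.

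MYCN itself, the target of the hairpin, was lower in Tet plus cells from 3 to 20 h, by 17.3% on average up to 14 h. At 0 to 14 h it ranged from 938 to 1213 CPM (median 1002) in the 14 Tet plus libraries and from 969.7 to 1479 CPM (median 1228) in the 14 Tet minus libraries. The ranges overlapped, but at 6 of the 7 times the higher Tet plus library was under the lower Tet minus library, which was the case at 6 or more times for 7.71% of the 14534 genes tested. The average difference passed the test (log2 fold change -0.27, SE 0.0460, adjusted p = 2.71e-05). All fold changes were tested by quasi-likelihood in edgeR, and their p-values were adjusted by Benjamini-Hochberg over the genes tested. From 16 to 22 h the Tet plus libraries held 871 to 1242 CPM and the Tet minus libraries 1063 to 1417 CPM, with no overlap at 3 of 4 times (24.9% of genes had as many in that direction), and the log2 fold change was -0.26 (SE 0.0608, adjusted p = 0.000787).

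Taken singly, 2 of the 11 times passed for MYCN, and 4 with a term for the replicate number (a replicate block), which added 6 h (adjusted p = 0.0208) and 10 h (0.0198). Over all genes the share called at a single time was 1.57% at 0 h, 2.72% at 3 h, 7.09% at 6 h, 3.43% at 8 h, 3.40% at 10 h, 4.19% at 12 h and 5.37% at 14 h, and then 27.0% at 16 h, 18.7% at 18 h, 23.9% at 20 h and 28.4% at 22 h. The widest gap came at 16 h, with 871 and 1012 CPM in the Tet plus libraries against 1417 and 1408 CPM in the Tet minus libraries (log2 fold change -0.59, adjusted p = 0.000826). At 12 h the libraries held 1057 and 1092 CPM in Tet plus cells, against 1479 and 1446 CPM in Tet minus cells (log2 fold change -0.45, adjusted p = 0.0343, 0.130 to 0.243 without any 1 of these 4 libraries). At 0 h, with 1012 and 938 CPM in Tet plus against 1091 and 969.7 CPM in Tet minus cells, and at 22 h, with 1048 and 1242 CPM against 1091 and 1244 CPM, the arms overlapped. Their log2 fold changes were -0.079 (adjusted p = 0.858) and -0.028 (adjusted p = 0.889). The test of whether the difference depends on time did not pass over 0 to 14 h (adjusted p = 1) or over 16 to 22 h (adjusted p = 0.223, 0.0816 with the replicate block). It passed for 0.0138% of genes in the earlier and 2.05% in the later window, so a difference that varies with time could go uncalled.

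Along the cycle the means of MYCN spanned a wider range in Tet minus than in Tet plus cells, although neither course passed the test. From 0 to 14 h the Tet plus means spanned 969.7 to 1113 CPM (adjusted p = 0.738, with 10.4% of genes called). The Tet minus means spanned 1030 CPM at 0 h to 1463 CPM at 12 h (range 0.51 on the log2 scale, adjusted p = 0.0710). That course passed with the replicate block (range 0.50, adjusted p = 0.0241), as did the step to 3 h over 0 h (log2 difference 0.39, adjusted p = 0.0363, 0.103 without the block). Whether the courses of the arms differ is the test of dependence on time given above, which did not pass.

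MYCNOS, the antisense transcript, rose in Tet plus cells on average over 16 to 22 h, while its difference up to 14 h did not pass the test. Up to 14 h it held 26.8 to 40.9 CPM (median 36.3) in Tet plus libraries, against 26.0 to 47.2 CPM (median 38.1) in Tet minus libraries, with a log2 difference of -0.048 (SE 0.0620, adjusted p = 0.570). Later it held 41.5 to 61.0 CPM in Tet plus libraries, against 32.8 to 42.4 CPM in Tet minus libraries. The arms did not overlap at any of these 4 times, with Tet plus higher, as was so for 10.1% of genes. Averaged over them, MYCNOS rose by 0.42 on the log2 scale in Tet plus cells (SE 0.0823, adjusted p = 0.000126).

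The test of the difference between the windows passed for MYCNOS (0.46 on the log2 scale, SE 0.103, adjusted p = 0.00168), as it did for 20.6% of genes, and for no other member. At 16 h the libraries held 53.0 and 61.0 CPM in Tet plus against 42.4 and 39.1 CPM in Tet minus cells (log2 fold change 0.49, adjusted p = 0.0284). At 22 h they held 53.5 and 53.1 CPM in Tet plus against 36.9 and 37.3 CPM in Tet minus cells (log2 fold change 0.52, adjusted p = 0.0182). The later window is the one where arm and lane set cannot be told apart. The call at 16 h did not hold without either Tet minus library or Tet plus replicate 2 (adjusted p 0.101 to 0.219), nor that at 22 h without any 1 of its 4 libraries (0.0721 to 0.0898), while 20 h passed with the replicate block alone (adjusted p = 0.0305), and the average over 16 to 22 h passed without any 1 of its 16 libraries (adjusted p at most 0.000628).

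In Tet minus cells MYCNOS changed along the cycle from 0 to 14 h (range 0.59 on the log2 scale, adjusted p = 0.0230), as 14.5% of genes did. Its libraries held 32.5 and 26.0 CPM at 3 h and 26.1 and 32.6 CPM at 6 h, but 41.0 and 47.1 CPM at 10 h and 40.5 and 47.2 CPM at 12 h. It was not kept without any 1 of 4 libraries, those of replicate 1 at 6 h and of replicate 2 at 3, 10 and 12 h (adjusted p 0.0576 to 0.113). In Tet plus cells the range was 0.48 and did not pass (adjusted p = 0.419). The exons of MYCN and MYCNOS share 98 bases on opposite strands, 3.77% of MYCN and 4.06% of MYCNOS exon length, and the strand setting of the counting is not given in the sources used here, so part of the MYCNOS counts (350 to 1153 a library) could stem from MYCN.

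DDX1, the helicase and the most abundant member, was slightly lower in Tet plus cells, most clearly at 22 h. Up to 14 h it held 8732 to 11587 CPM (median 9764) in Tet plus libraries, against 9568 to 12664 CPM (median 10270) in Tet minus libraries, and the arms did not overlap at 3 of 7 times, each with Tet plus lower (24.2% of genes had 3 or more). The log2 fold change of -0.10 (SE 0.0394) passed narrowly (adjusted p = 0.0435). For 19 of the 28 libraries, leaving that library out ended the call, the highest adjusted p being 0.0950 (Tet minus 12 h replicate 2), and so did DESeq2 size factors (0.0580). From 16 to 22 h it held 8077 to 12972 CPM in Tet plus libraries, against 10296 to 14301 CPM in Tet minus libraries, a log2 difference of -0.16 (SE 0.0522, adjusted p = 0.00953). That call ended without Tet minus 16 h replicate 2 (0.0502) and without Tet plus 20 h replicate 2 (0.0601), and with a replicate block within lane sets (-0.058, adjusted p = 0.440).

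The average over 16 to 22 h hides a turn of sign. At 16 h the libraries held 12800 and 12972 CPM in Tet plus against 10296 and 11067 CPM in Tet minus cells, a log2 fold change of 0.27 (adjusted p = 0.0548, 0.0321 with the replicate block). At 22 h they held 8702 and 8077 CPM in Tet plus against 11640 and 14301 CPM in Tet minus cells, and DDX1 fell by 0.63 on the log2 scale (SE 0.105, adjusted p = 5.90e-05). The arms did not overlap at either time and stood in opposite order. A test that the 4 arm differences are equal, chosen after these values were seen, was past the threshold (range 0.90, adjusted p = 0.00427, 0.0544 without Tet minus 22 h replicate 2), as it was for 2.05% of genes.

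Within Tet plus cells alone, which share lanes over these times, DDX1 changed from 16 to 22 h (adjusted p = 0.00873), as did 1.91% of genes. It fell by 0.62 on the log2 scale at 22 h relative to 16 h (SE 0.105, adjusted p = 0.000736), a step for which 7.24% of genes passed. The course no longer passed without replicate 1 of 22 h (adjusted p = 0.0563), replicate 2 of 16 h (0.0642) or replicate 2 of 22 h (0.185). In Tet minus cells the same step was 0.28 and did not pass (adjusted p = 0.166). From 0 to 14 h neither course of DDX1 passed, with ranges of 0.27 in Tet plus (adjusted p = 0.530) and 0.33 in Tet minus cells (adjusted p = 0.285), and both arms had their highest mean of that window at 14 h (10968 and 12014 CPM).

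NBAS was higher in Tet plus cells, opposite to MYCN and to DDX1, which lies next to it. Up to 14 h it held 6194 to 9270 CPM (median 7663) in Tet plus libraries, against 5323 to 8502 CPM (median 6703) in Tet minus libraries. Only at 10 h did the arms not overlap, with 7370.1 and 9270 CPM in Tet plus against 6183 and 7036 CPM in Tet minus cells, and 53.5% of genes had 1 or more such times. The log2 fold change of 0.17 (SE 0.0664) was past the threshold (adjusted p = 0.0424), but 14 of the 28 libraries each ended the call when left out, at most with 0.104 (Tet plus 8 h replicate 2). With the replicate block the adjusted p was 0.00365.

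In the later window NBAS held 8779 to 12034 CPM in Tet plus libraries, against 6960.3 to 9695 CPM in Tet minus libraries, without overlap at any of the 4 times (10.1% of genes were higher in this way). It rose by 0.37 on the log2 scale in Tet plus cells (SE 0.0880, adjusted p = 0.000846), and the call held without any 1 of the 16 libraries. At 20 h the libraries held 12034 and 11698 CPM in Tet plus against 8637 and 8500 CPM in Tet minus cells (log2 fold change 0.47, adjusted p = 0.0528, 0.00465 with the replicate block, which also called 16 h at 0.0402 and 18 h at 0.0149). The difference between the windows was 0.20 (adjusted p = 0.206, 0.0474 with the replicate block and 0.00195 with the block within lane sets).

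Replicates of NBAS differed in 1 direction at 0 to 14 h. Replicate 2 was above replicate 1 at 7 of 7 times in Tet plus cells (mean ratio 1.19) and at 7 of 7 times in Tet minus cells (mean ratio 1.24). From 16 to 22 h replicate 2 was higher at 1 of 4 times in Tet plus and at 3 of 4 times in Tet minus cells. Over the 22 pairs this made 18, a count that 17.3% of genes reached, against 13 for MYCN and 15 for DDX1. No course of NBAS passed in either arm or window (adjusted p 0.580 to 0.775, with 0.530% of genes called in Tet minus cells at 16 to 22 h), with its lowest mean at 6 h in both arms, 6535 CPM in Tet plus cells, against 6000.2 CPM in Tet minus cells.

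FAM49A, the RAC1 regulator, showed the largest change of the 5 although it was the least abundant. Up to 14 h it held 4.30 to 8.35 CPM (median 5.98) in Tet plus libraries, against 2.20 to 5.79 CPM (median 3.32) in Tet minus libraries, from 39 to 182 counts a library. The arms did not overlap at any of the 7 times, with Tet plus higher, as was so for 3.18% of genes. FAM49A rose by 0.74 on the log2 scale in Tet plus cells (SE 0.0935, adjusted p = 4.24e-07), a ratio of 1.68.

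After 14 h FAM49A held 4.60 to 8.47 CPM in Tet plus libraries, against 2.49 to 5.02 CPM in Tet minus libraries, again without overlap at any of the 4 times, against a background of 10.1% of genes. The log2 fold change was 1.06 (SE 0.126, adjusted p = 7.95e-08). At 20 h the libraries held 8.43 and 8.47 CPM in Tet plus against 3.04 and 3.13 CPM in Tet minus cells (log2 fold change 1.45, adjusted p = 0.000112). Both averages passed without any 1 of their libraries. The difference between the windows was 0.32 (adjusted p = 0.158, 0.0404 without Tet minus 18 h replicate 1).

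Of the 11 single times, FAM49A passed at 7, but leaving out 1 library could end the call at 5 of them: at 6 and 16 h for 2 of the 4 libraries, at 8 and 18 h for 3 and at 14 h for all 4 (highest adjusted p 0.159 at 8 h, 0.321 at 14 h, 0.145 at 16 h and 0.490 at 18 h). The calls at 20 and 22 h held without any 1 of their libraries. At 6 h it held 6.02 and 8.35 CPM in Tet plus against 2.91 and 3.57 CPM in Tet minus cells (log2 fold change 1.14, adjusted p = 0.00604, 0.215 without Tet plus 6 h replicate 2 and 0.0729 without Tet minus 6 h replicate 1), and at 0 h 7.26 and 5.94 CPM against 5.79 and 5.04 CPM (log2 fold change 0.29, adjusted p = 0.680). In Tet minus cells FAM49A changed from 0 to 14 h (range 0.96 on the log2 scale, adjusted p = 0.0396), from 5.41 ± 0.533 CPM at 0 h, its highest mean, to 2.77 ± 0.810 CPM at 12 h, its lowest (SD, n = 2). Leaving out 1 library ended that call for 8 of the 14, with an adjusted p of up to 0.232 (Tet minus 0 h replicate 1). The Tet plus course, with means of 4.43 to 7.18 CPM, did not pass (range 0.70, adjusted p = 0.256).

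**Figure D2:**
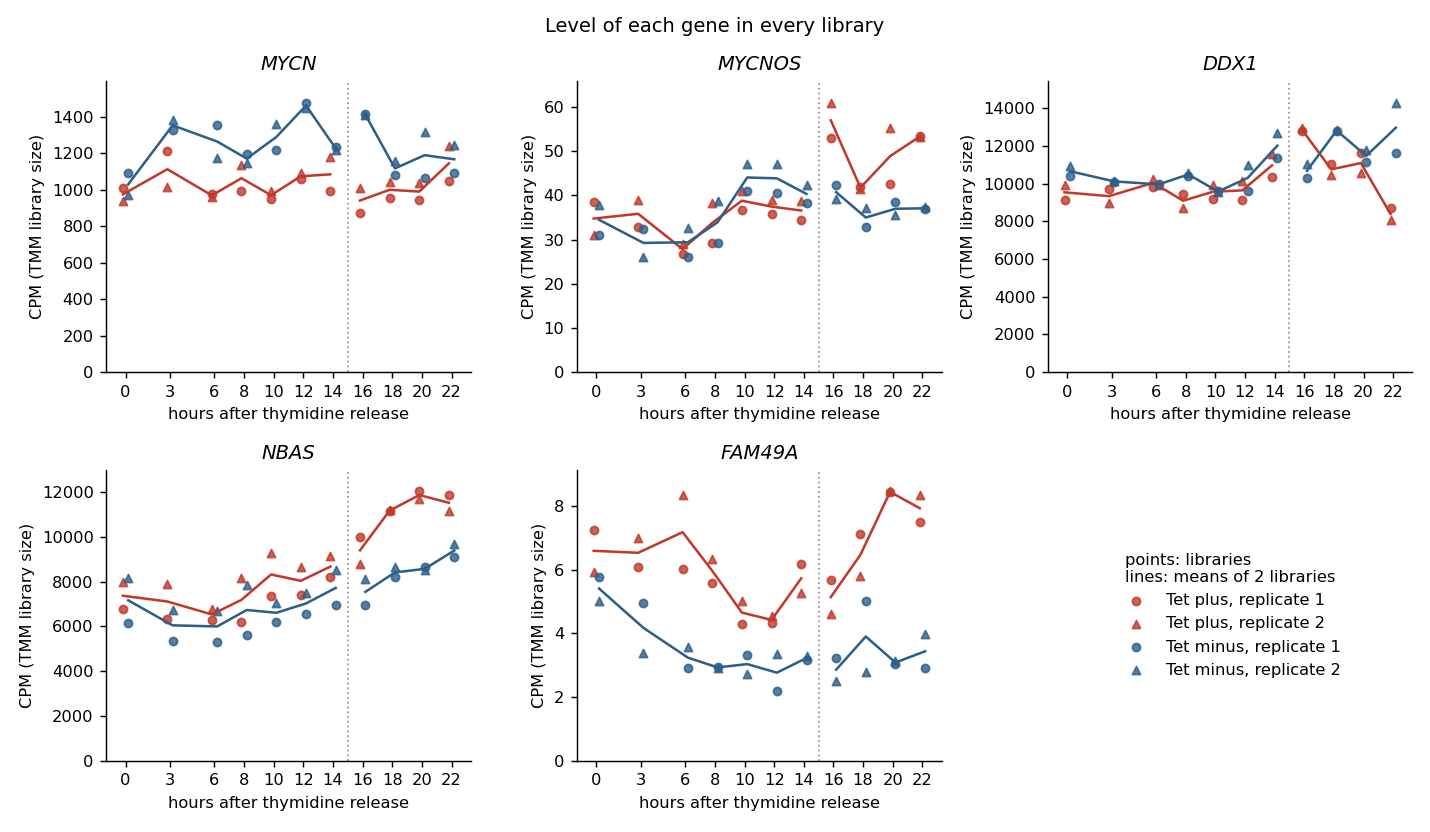
CPM on the TMM library size (vertical axes, starting at 0) by hours after release from thymidine (horizontal axes) for each gene; red is Tet plus and blue Tet minus, circles and triangles are replicates 1 and 2, lines join the means of 2 libraries and the dotted line parts the windows. FAM49A lies higher in Tet plus at all 11 times, MYCN lower in mean at all 11, and DDX1 changes order between 16 and 22 h.

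Over the 5 members, 2 rose (NBAS and FAM49A), 2 fell (MYCN and DDX1) and MYCNOS did not pass at 0 to 14 h, where 41.4% of all genes tested were called, 20.1% higher and 21.3% lower. In the later window 3 rose (MYCNOS, NBAS and FAM49A) and 2 fell (MYCN and DDX1), and 53.1% of all genes were called, 26.3% higher and 26.8% lower. When the 28 libraries of 0 to 14 h were fitted alone, MYCN and FAM49A passed and DDX1 and NBAS did not. The median over all genes was 0.0095 in the earlier and 0.019 in the later window on the log2 scale. Scaling to the ERCC transcripts shifted that median to 0.13 at 0 to 14 h and 4.41 at 16 to 22 h, and relative to these medians MYCN stood at -0.28 and -0.28, MYCNOS at -0.067 and 0.39, DDX1 at -0.12 and -0.15, NBAS at 0.15 and 0.39, and FAM49A at 0.69 and 1.02. Such scaling shifts all genes of a library by the same factor. Values relative to the median therefore had to stay near those on TMM scaling and are no separate test. The test of whether the arm difference depends on time over 0 to 14 h passed for no member (adjusted p = 1 for each) and for only 0.0138% of genes.

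**Figure D3:**
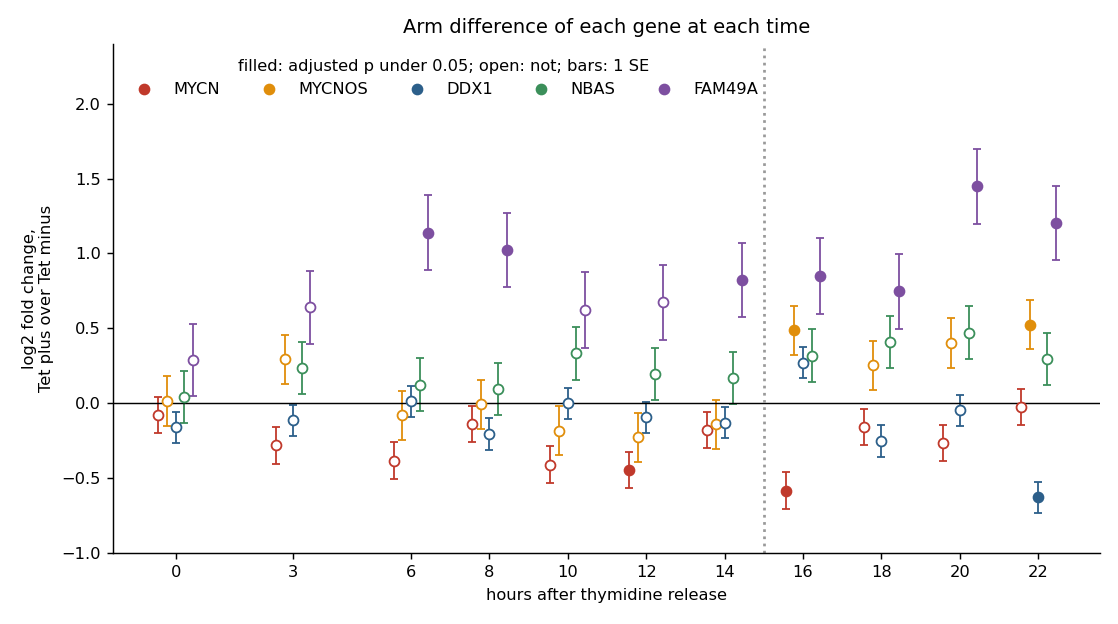
Log2 fold change of Tet plus over Tet minus (vertical axis) at each time after release (horizontal axis) for the 5 genes, with bars of 1 SE, filled points where the adjusted p was under 0.05 and a dotted line between the windows. FAM49A lies above 0 at all 11 times, MYCN below 0 at all 11 and DDX1 lowest at 22 h (-0.63), on TMM scaling.

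The ratio of MYCN to another member within a library does not depend on how libraries are scaled. The log2 ratio of counts was compared between the arms within each pair of libraries of the same time and replicate number, by a 2-sided exact permutation test over sign changes, with p-values adjusted over 8 tests. Pairs of different times with the same replicate number are not independent, which these p-values take them to be. MYCN fell relative to NBAS in 14 of 14 pairs at 0 to 14 h, with a geometric mean of 0.137 MYCN counts per NBAS count in Tet plus and 0.187 in Tet minus libraries (log2 difference -0.45 ± 0.260 SD, exact permutation p = 0.000122, the smallest this design can give, adjusted p = 0.000488). Relative to FAM49A the ratio was lower in 14 of 14 pairs as well (log2 difference -1.02 ± 0.441, adjusted p = 0.000488), with 178 counts of MYCN per count of FAM49A in Tet plus and 362 in Tet minus libraries.

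MYCN also fell relative to its antisense partner MYCNOS, in 12 of 14 pairs at 0 to 14 h (log2 difference -0.23 ± 0.299 SD, exact permutation adjusted p = 0.0104) and in 8 of 8 pairs at 16 to 22 h (-0.67 ± 0.324, adjusted p = 0.0104). Relative to DDX1 it was lower in 10 of 14 pairs at 0 to 14 h (-0.17 ± 0.233, adjusted p = 0.0204), but at 16 to 22 h in 4 of 8 pairs (-0.10 ± 0.583, adjusted p = 0.656). In the later window the ratios to NBAS (-0.63 ± 0.297) and FAM49A (-1.33 ± 0.347) were lower in 8 of 8 pairs (adjusted p = 0.0104 for each, from the smallest p possible, 0.00781). The transcripts of the amplicon thus moved by unequal amounts within the same libraries. With replicate 2 alone the exact permutation test over 7 pairs at 0 to 14 h gave no adjusted p under 0.0625, and 4 pairs at 16 to 22 h cannot reach the threshold.

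**Figure D4:**
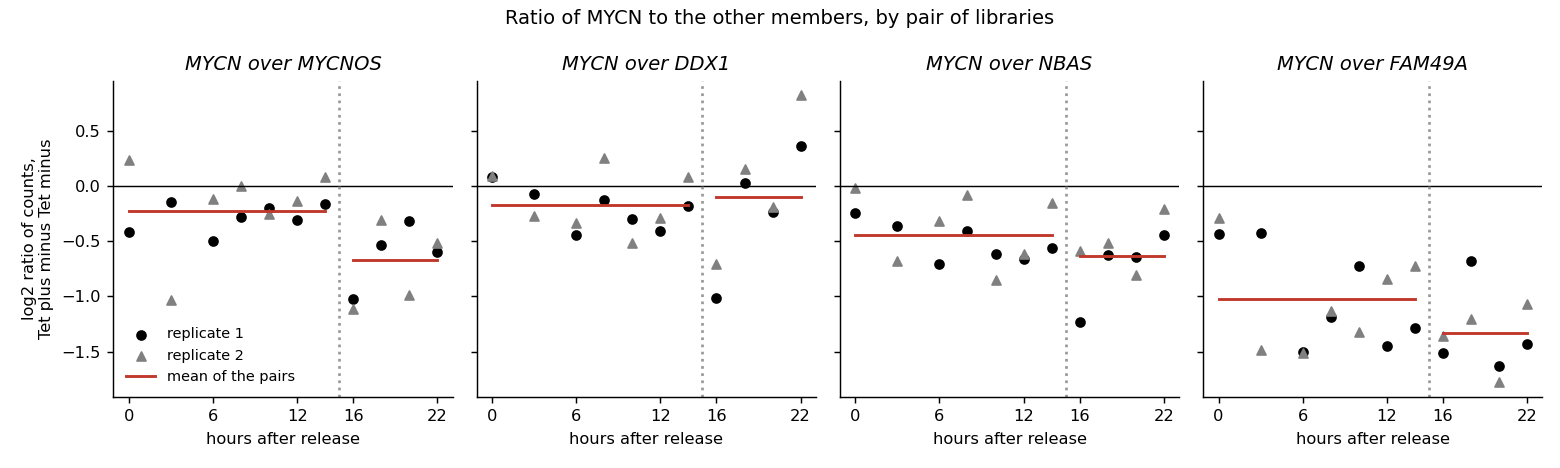
Difference in the log2 ratio of MYCN counts to those of another member, Tet plus minus Tet minus (vertical axis), for each pair of libraries of the same time and replicate number by hours after release (horizontal axis); black circles are replicate 1, grey triangles replicate 2, and red lines the means of 14 pairs at 0 to 14 h and 8 pairs at 16 to 22 h. Every pair lies below 0 for NBAS and FAM49A, and the pairs for DDX1 lie on both sides.

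Correlations of log2 CPM between members were computed for the 10 pairs of genes in 3 sets of libraries, 14 Tet plus libraries of 0 to 14 h, 8 Tet plus libraries of 16 to 22 h and 22 Tet minus libraries, with p-values adjusted over the 30 relations. Libraries that share a lane, time or replicate number are not independent samples, which these p-values take them to be. Only DDX1 with NBAS in Tet minus cells passed by both measures (Pearson's r = 0.769, permutation adjusted p = 0.000600; Spearman's rho = 0.801, adjusted p = 0.000300). It held without the 2 libraries farthest from the median of DDX1 (r = 0.708, adjusted p = 0.0150) and after each lane was centred (r = 0.528, adjusted p = 0.0430). With each group of the same arm and time centred, which leaves only deviations between replicates, r was 0.450. In Tet plus libraries the same pair had r = 0.351 at 0 to 14 h (adjusted p = 0.467) and r = -0.591 at 16 to 22 h (adjusted p = 0.417), and the difference between the arms in r was not tested.

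MYCNOS and NBAS correlated in Tet plus libraries of 0 to 14 h (r = 0.728, permutation adjusted p = 0.0422; rho = 0.714, adjusted p = 0.0808), with r = 0.714 after lanes were centred (adjusted p = 0.0263), but without the 2 libraries farthest from the median of MYCNOS r was 0.645 and the adjusted p 0.353. NBAS and FAM49A correlated in the 8 Tet plus libraries of 16 to 22 h (r = 0.877, exact permutation adjusted p = 0.0422; rho = 0.786, adjusted p = 0.209). With lanes centred r was 0.875 (permutation adjusted p = 0.0208). Without the 2 farthest libraries r was 0.487 (adjusted p = 0.588), so the call depends on them. At 0 to 14 h the lane-centred r of NBAS with FAM49A in Tet plus libraries was of the other sign (-0.675, permutation adjusted p = 0.0403). With groups centred, r was 0.624 for MYCNOS with NBAS in the earlier and 0.425 for NBAS with FAM49A in the later Tet plus set. MYCN did not pass with any member in any of the 3 sets on uncentred values. Its r with MYCNOS was 0.360 and 0.219 in the earlier and later Tet plus sets and 0.140 in Tet minus libraries, and its largest r in size was with DDX1 in the later Tet plus set (-0.819, adjusted p = 0.0711). With lanes centred, 8 of the 30 relations passed, among them MYCN with DDX1 in that set (r = -0.942, adjusted p = 0.0208) and, in Tet minus libraries, MYCN with DDX1 (-0.534, adjusted p = 0.0403) and with NBAS (-0.615, adjusted p = 0.0208). With groups centred instead, the r of MYCN with DDX1 was -0.692 in the later Tet plus set. In Tet minus libraries it was then 0.291 with DDX1, of the other sign, and -0.244 with NBAS.

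**Figure D5:**
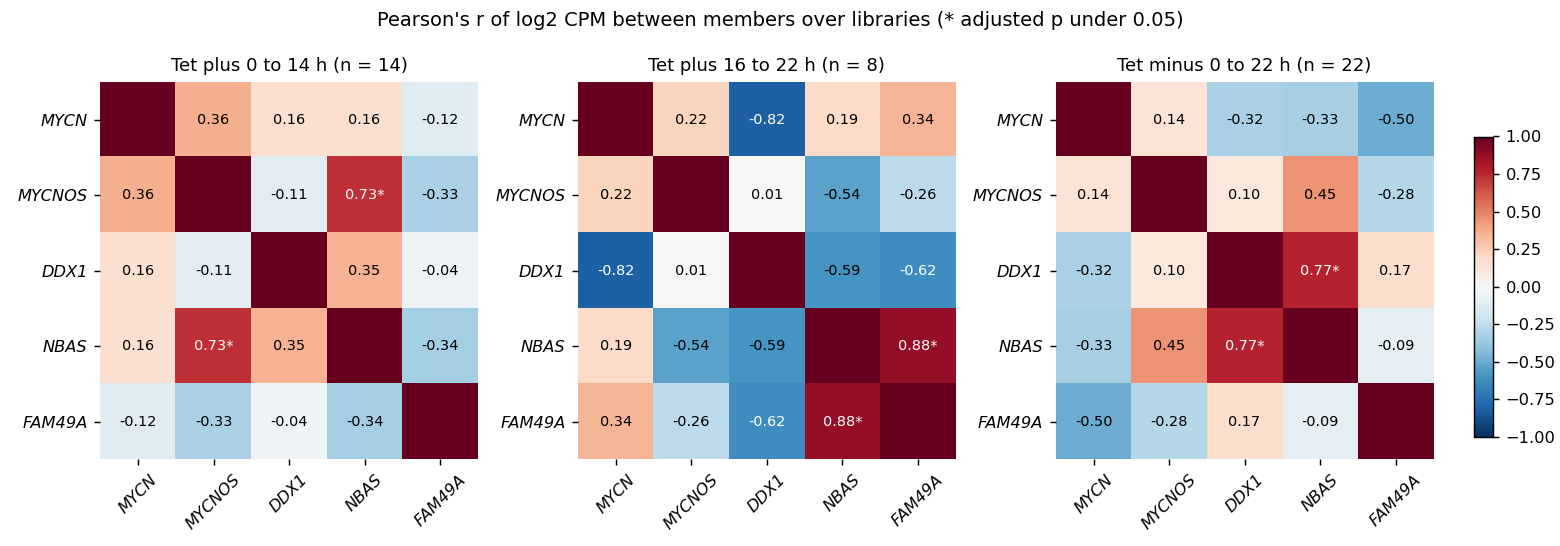
Pearson's r of log2 CPM between the 5 genes over the 14 Tet plus libraries of 0 to 14 h, the 8 of 16 to 22 h and the 22 Tet minus libraries; colour runs from -1 (blue) to 1 (red) and an asterisk marks an adjusted p under 0.05. There is 1 marked pair in each set, and none of them includes MYCN.

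For each member the 3 genes with the highest r over the 22 Tet minus libraries were looked up among about 10090 genes whose mean log2 CPM was 3 or more, as a description. For NBAS these were KIAA1797 (r = 0.969), RPL13A (0.946) and UGGT1 (0.946), and over the 14 Tet plus libraries of 0 to 14 h the same genes had r = 0.971, 0.877 and 0.689. For DDX1 they were C17orf48 (0.924), TOP2B (0.920) and KPNB1 (0.911), with 0.260, 0.891 and 0.678 in Tet plus cells. The likeness of FAM49A to PRKAA2 (0.816), NEBL (0.802) and SLC1A2 (0.800) was 0.729, 0.734 and 0.686 in Tet plus cells, and that of MYCNOS to ZNF250 (0.829), GLUL (0.825) and SNORD80 (0.806) was 0.568, 0.577 and 0.526. For MYCN, CAMSAP1 (0.809), PEF1 (0.769) and AHRR (0.757) led, with 0.268, 0.355 and 0.193 in Tet plus cells. No other member was among any of these, though FAM49A, with a mean log2 CPM under 3, was not among the genes compared.

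Genes that work with the members were counted from lists chosen with earlier results of these data known, and each count is set beside the share of all genes called the same way. Around MYCN, 3 of 12 measured genes of the MYC family and MAX network rose in Tet plus cells at 0 to 14 h and 2 fell, where 20.1% of all genes rose and 21.3% fell, with a median log2 fold change of -0.026 against 0.0095 over all genes. The 3 that rose encode MAX partners that oppose MYC: MXD4 (0.98, SE 0.0692, adjusted p = 1.63e-11), MXD1 (0.61, SE 0.0636) and MXD3 (0.56, SE 0.115), while MAX itself fell by 0.15 (SE 0.0515, adjusted p = 0.0244). Of the same list, 7 genes were not called at 0 to 14 h. At 16 to 22 h MXD4 and MXD1 were again higher (1.04 and 0.79), but MXD3 did not pass (-0.10, adjusted p = 0.608). Of 19 genes known to govern MYCN transcription or protein stability, 4 rose and 4 fell (median 0.035), against the same background. With the smallest adjusted p of that list at 0 to 14 h, the cell cycle factors E2F3 (-0.42, SE 0.0658) and E2F2 (-0.49, SE 0.0891), the RNA-binding protein LIN28B (-0.39, SE 0.0738) and the deubiquitinase USP7 (-0.20, SE 0.0473) fell. In the later window, where 26.3% of all genes rose and 26.8% fell, 4 rose and 1 fell in the first list (median 0.16), and 6 rose and 8 fell in the second (median 0.064).

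Textbook targets of MYC proteins were mostly lower in Tet plus cells. At 0 to 14 h 13 of 16 fell and 0 rose (median -0.52), against 21.3% and 20.1% of all genes. At 16 to 22 h 14 fell and 1 rose (median -0.76), against 26.8% and 26.3%. This list too was chosen with earlier results of these data known, so it is no independent check on the knockdown. The kinase CDK4 fell by 0.73 on the log2 scale (SE 0.0478, adjusted p = 4.02e-12), averaging 146 CPM in Tet plus libraries, against 241 CPM in Tet minus ones. Lactate dehydrogenase A (LDHA) fell by 0.87 (SE 0.0580), and the ribosome factors NOP56 and DKC1 by 0.52 (SE 0.0369) and 0.59 (SE 0.0446). Each of these 4 differences was larger in size than that of MYCN itself, but the 4 were picked for the smallest adjusted p of the list at 0 to 14 h.

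Most partners of DDX1 in the tRNA ligase complex did not pass the test. Of 5 measured genes, 1 fell at 0 to 14 h and 0 rose (median -0.14), where 21.3% of all genes fell. It was the ligase C22orf28, now RTCB, which fell by 0.17 (SE 0.0555, adjusted p = 0.0128), with 214 CPM in Tet plus libraries, against 241 CPM in Tet minus ones. ZBTB8OS, the archease that activates the ligase, had -0.13 (adjusted p = 0.114), C2orf49 -0.14 (adjusted p = 0.116) and FAM98B -0.16 (adjusted p = 0.138). Later 2 of the 5 fell and 0 rose (median -0.14), where 26.8% of all genes fell.

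Partners of NBAS were called lower at about the share of all genes at 0 to 14 h, and in a larger share later. Of 13 measured genes of Golgi-to-ER tethering and nonsense-mediated decay, 4 fell and 1 rose in Tet plus cells at 0 to 14 h (median -0.11), against 21.3% and 20.1% of all genes, and 9 fell and 0 rose at 16 to 22 h (median -0.20), against 26.8% and 26.3%. Those with the smallest adjusted p were the SNARE SEC22B (-0.36, SE 0.0567), the decay factors SMG5 (-0.19, SE 0.0469) and UPF1 (-0.18, SE 0.0465), and ZW10 (-0.19, SE 0.0578), which tethers vesicles together with NBAS. In the later window UPF1 fell by 0.73 (SE 0.0622, adjusted p = 2.20e-10).

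Of 11 genes of RAC1 and the WAVE complex, which FAM49 proteins regulate, 1 rose and 1 fell at 0 to 14 h (median 0.026), where 20.1% of all genes rose and 21.3% fell, and 0 rose and 5 fell at 16 to 22 h (median -0.16), where 26.3% rose and 26.8% fell. WASF3, a WAVE protein, fell by 0.40 (SE 0.0531, adjusted p = 1.16e-06), and CYFIP2, a subunit that binds RAC1, rose by 0.20 (SE 0.0742, adjusted p = 0.0349). RAC1 had -0.12 (adjusted p = 0.329). FAM49B, the paralogue of FAM49A, had -0.074 (SE 0.0537, adjusted p = 0.286), with 126 CPM in Tet plus libraries, against 133 CPM in Tet minus ones, against the 0.74 of FAM49A.

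The genes flanking the amplicon showed no common direction, and those toward the telomere were called at about the share of all genes (20.1% higher and 21.3% lower at 0 to 14 h, 26.3% and 26.8% later). Of 28 tested neighbours toward the telomere, 7 rose and 7 fell in Tet plus cells at 0 to 14 h (median 0.034), and 8 rose and 9 fell at 16 to 22 h (median -0.055). ODC1 fell by 0.79 (SE 0.0688, adjusted p = 9.59e-10), the nucleolar factor NOL10 by 0.50 (SE 0.0658) and ITGB1BP1 by 0.24 (SE 0.0423), while KIDINS220 rose by 0.29 (SE 0.0388). Of 15 tested neighbours toward the centromere, 2 rose and 3 fell at 0 to 14 h (median 0.025), among them the proteoglycan SDC1, which fell by 0.97 (SE 0.163, adjusted p = 2.71e-05), WDR35, which fell by 0.50 (SE 0.0691), and HS1BP3 and LAPTM4A, which rose by 0.30 (SE 0.0644) and 0.15 (SE 0.0554). From 16 to 22 h 6 rose and 7 fell (median -0.27). Of 8 listed non-coding genes at the locus other than MYCNOS, 0 had a row of the listed name among the counts, so none was tested.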

How the data were processed

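The authors deposited whole-number read counts per gene, not normalized, for 44 libraries of total RNA with ERCC spike-ins, depleted of ribosomal RNA and made directional, per the labels' protocols. Per the submitters' processing notes they used TopHat2 2.0.5, HTSeq and hg19; not given in the sources used here are the version of HTSeq, the annotation and the strand setting. Tests used edgeR 4.0.16 (R 4.3.3; glmQLFit and glmQLFTest after TMM and filterByExpr) with 1 mean for each of 22 groups and 22 residual degrees of freedom; 92 ERCC rows were kept out, and 14534 of 23367 genes passed the filter. The threshold was an adjusted p of 0.05, and SE is the log2 fold change over the square root of F. The fit for the arm difference at 0 to 14 h was tried on simulated counts. These held no lane or replicate deviations, so they cannot show how such deviations act on the test. Levels are CPM on the TMM library size, those of marker genes CPM on the plain total. DESeq2 1.42.0 gave an alternative test. Ratios had 0.5 added to each count, and log2 CPM a prior count of 2. SDs over a window mix times with replicates, and libraries of different times share replicate deviations, which the p-values of a window do not allow for.

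Exon lengths came from GENCODE annotation by gene name (20195 genes, 86.4%), and gene order and promoters from RefSeq, GRCh38.p14, another build than the counts'; older symbols were matched through these tables. FAM49A had no promoter entry there.

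Same-numbered libraries of the arms shared deviations from their group means at every time (lowest r 0.373 at 0 to 14 h and 0.263 at 16 to 22 h, over 10090 genes), so the numbers were taken to pair the arms. Between replicates the chi-square per gene was 8.90 to 51.3, above counting noise.

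The members and lists were chosen with earlier results of these data known. Genes named were the 5 members, up to 4 genes of each list by adjusted p at 0 to 14 h, and the 3 genes most like each member. Alternatives were other normalizations, filters, tests, blocks and left-out libraries. Some further marker genes are not reported here.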

Additional observations from a re-analysis of the deposited data

Results flagged for a closer look

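MYCNOS differed between the windows by a test of that difference: its log2 fold change, Tet plus over Tet minus, was 0.42 at 16 to 22 h and -0.048 at 0 to 14 h, a difference of 0.46 (SE 0.103, adjusted p = 0.00168, edgeR's quasi-likelihood test). The value lay between 0.43 and 0.51 when any 1 of the 44 libraries was left out. At 16 to 22 h the Tet plus libraries had 477 to 1153 and the Tet minus libraries 444 to 827 counts of MYCNOS. The ERCC share, lower in Tet plus libraries there (0.0543% to 0.376% against 1.13% to 3.43%), and the share of small nucleolar RNAs (0.935% to 2.41% against 0.289% to 0.713%) moved with it, and their part in the result was not tested.

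DDX1 differed between times within 16 to 22 h: the arm difference ran from 0.27 at 16 h to -0.63 at 22 h, a range of 0.90 on the log2 scale (adjusted p = 0.00427). The test was chosen after these values were seen. Leaving out any 1 of the 16 libraries gave ranges of 0.74 to 1.04, and the adjusted p was 0.0544 without Tet minus 22 h replicate 2, the library with the highest DDX1 level of all (14301 CPM).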

How the results depend on the processing

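At 0 to 14 h the arm differences of MYCN and FAM49A kept their direction and passed the test under each alternative run apart from ERCC scaling, under which MYCN was at -0.15 and FAM49A at 0.82 without passing. That scaling left 48 genes called at 0 to 14 h and 14510 at 16 to 22 h, and moved MYCNOS to 0.065, DDX1 to 0.015 and NBAS to 0.28 at 0 to 14 h (none passing). At 16 to 22 h, where all 14510 calls were higher, the falls of MYCN and DDX1 became rises of 4.12 and 4.26 that passed. The differences between windows moved to 4.27 for MYCN, 4.24 for DDX1, 4.52 for NBAS and 4.61 for FAM49A, each passing. ERCC scaling also ended the calls on the courses of DDX1 in Tet plus (range 0.99) and of MYCNOS and FAM49A in Tet minus cells (ranges 1.04 and 2.30). DDX1 at 0 to 14 h did not pass with DESeq2 size factors (-0.10), without a filter (-0.11), with the 28 libraries alone (-0.10) or in a fit without trended dispersion, added after seeing the data (-0.10). NBAS at 0 to 14 h did not pass in the last 3 of these (0.16, 0.17 and 0.17). With the replicate block the Tet minus course of MYCN (range 0.50) and the difference between windows of NBAS (0.21) passed, as did MYCN at 6 and 10 h and at 3 h over 0 h in Tet minus cells, MYCNOS at 20 h, DDX1 at 16 h and NBAS at 16, 18 and 20 h; it changed no other call. With the block within lane sets, added after seeing the data for 16 to 22 h, DDX1 at 16 to 22 h did not pass (-0.058), and the differences between windows were -0.0071 for MYCN, 0.042 for DDX1 and 0.31 for NBAS, the last passing. Leaving out any 1 library gave -0.11 to -0.087 for DDX1 and 0.14 to 0.21 for NBAS at 0 to 14 h, -0.20 to -0.13 for DDX1 at 16 to 22 h, and for the differences between windows -0.024 to 0.054 for MYCN and 0.22 to 0.43 for FAM49A. The same step gave ranges of 0.57 to 0.68 for the Tet plus course of DDX1 at 16 to 22 h, 0.57 to 0.76 and 0.87 to 1.30 for the Tet minus courses of MYCNOS and FAM49A at 0 to 14 h, and 0.74 to 1.04 for the dependence of DDX1 on time at 16 to 22 h. With 1 replicate number, the ratios of MYCN at 0 to 14 h were -0.29 to -0.17 to MYCNOS, -0.21 to -0.14 to DDX1, -0.51 to -0.39 to NBAS and -1.04 to -0.9997 to FAM49A, and at 16 to 22 h -0.73 to -0.62, -0.21 to 0.021, -0.74 to -0.53 and -1.35 to -1.31. A pseudocount of 5 changed no ratio's call. The order of the members' levels did not change without length correction, though the neighbour FAM84A then lay above MYCN. FAM49A rests on 39 to 182 counts a library, so its single-time values are the least precise of the 5.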
